A study of Mus musculus with 8 samples.

Results

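Complement is a system of plasma proteins and receptors that marks microbes and dying cells for uptake, and its genes were followed here in macrophages at 3 states of activation. The rule took every probe set annotated to 1 of 9 named genes: the C1q chains C1qa, C1qb and C1qc, the components C3, Cfb and Cfp, the receptors C3ar1 and C5ar1, and the inhibitor Serping1. It gave 14 of the 45037 probe sets tested, which stood for 8 of the 9 genes and 8 of 18193 named genes in all. The annotation used here lists no probe set for C3, so C3 was not analysed here. Bone marrow cells of wild-type C57BL/6J mice were grown into macrophages (bone marrow-derived macrophages, BMDM) with L929 cell supernatant as the source of macrophage colony stimulating factor, and were replated without it on day 7. M1 macrophages (n = 3 arrays) then received 100 ng/ml of LPS and 20 ng/ml of IFN-γ, M2 macrophages (n = 2 arrays) received 20 ng/ml of IL-4, and M0 macrophages (n = 3 arrays) received media alone, each for 24 hours. The age of the mice was not given in the sources used here, and these are cells in culture, away from the liver and from plasma. Whether arrays of 1 condition came from separate mice is not settled, since labels and methods describe the replicates differently, so that the p-values measure the spread between these arrays, which may be partly technical.

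Complement can be set off in several ways. C1q binds antibodies or dying cells and starts the classical pathway with its proteases, factor B (Cfb) forms the protease of the alternative pathway, and properdin (Cfp) stabilizes that enzyme. Fragments released on the way act on G-protein coupled receptors of myeloid cells, C3ar1 for C3a and C5ar1 for C5a, and C1 inhibitor (Serping1) blocks the first proteases. The liver makes most complement of the plasma, but macrophages are a main source of C1q and properdin and make complement locally in tissue.

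Values are RMA intensities on a linear scale, called units. The median probe set of an array lay between 38.9 and 40.4 units, which serves here as the mark below which a level is dim. A gene was said to rise or fall at a Benjamini-Hochberg adjusted p under 0.05 from limma, fitted to all 8 arrays and adjusted over all 45037 probe sets, and was called changed if the difference was also at least 2-fold. A gene is given by its probe set with the highest mean log2 intensity, with the other probe sets of the 8 genes beside it. All 6 M1 markers looked up (such as Il6, Il12b and Cxcl9) were called up-regulated in M1 against M0 macrophages, and all 6 M2 markers (such as Retnla, Chil3 and Mgl2) were called higher in M2 than in M0 macrophages. Of the M1 markers, Il6 was also called higher in M2 macrophages, at 35.8 and 103.7 units against 8.04 to 9.46 units in M0. The markers named here are among the top genes that the paper lists from the same arrays, so their passing is no independent check. All 9 macrophage markers lay above the array median on every array, with summed levels of 78216 to 79759 units in M1, 55703 to 59348 units in M2 and 80863 to 83396 units in M0 macrophages. In M2 macrophages 4 of these 9 were called lower than in M0 macrophages, namely Adgre1, Fcgr1, Mertk and Cd14. In M1 macrophages none of the 9 was called, but without a fold limit Cd14 rose, with a log2 fold change of 0.89 (adjusted p = 1.37e-04), and Cd68 and Mertk fell, with -0.72 and -0.85 (adjusted p = 1.78e-04 and 3.85e-04 from limma). Their part in the results below was not tested.

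The complement genes did not move as a block. In M1 macrophages Cfb was 19.4-fold higher than in M0 macrophages, the C1q chains, properdin and both anaphylatoxin receptors fell, and Serping1 rose slightly at a dim level. With no limit on the fold, 2 of the 8 genes rose and 6 fell, against a background of 13.7% of all genes higher and 11.5% lower. With the 2-fold limit, only Cfb was called higher and only C5ar1 lower on the brightest probe sets (background 2.80% and 3.20%). The dimmer probe sets of C3ar1 were called lower too. The median log2 fold change of the 8 genes was -0.67 in M1 macrophages, against 0.02 over all genes.

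In M2 macrophages no complement gene of the 8 rose. C1qa, Cfb, C3ar1 and C5ar1 fell (4 of 8, background 6.43% lower and 8.03% higher), and Cfb and C5ar1 were called at least 2-fold lower (background 1.76% lower and 1.91% higher). The median log2 fold change was -0.38, against 0.01 over all genes. Set directly against M2, M1 macrophages had more Cfb, a call whose fold is uncertain in size because the M2 level lay at the array median. On the brightest probe sets they had less C1qb, C1qc and Cfp, none of them past 2-fold, while the dimmer probe sets of C1qb and Cfp did not pass. That is 1 of 8 genes higher and 3 lower whatever the fold (background 11.5% and 12.3%), and 1 of 8 called in either direction with the 2-fold limit (background 7.41%). Comparisons with M0 share the same 3 M0 arrays, so that a high or low M0 array moves both.

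**Figure D1:**
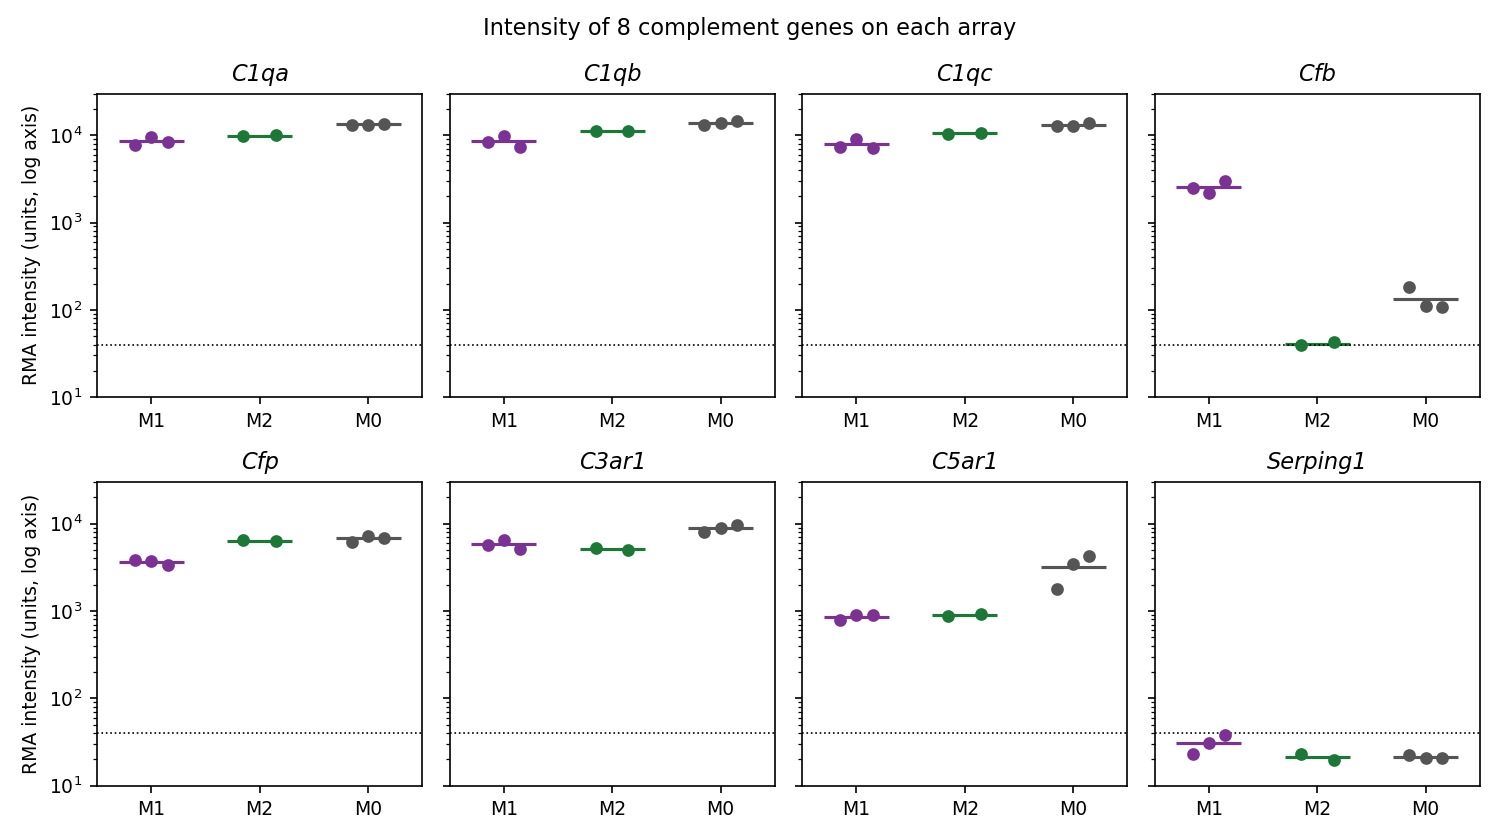
Intensity in units (log axis) of 8 complement genes on each array of M1 (purple), M2 (green) and M0 (grey) macrophages. Points are arrays, horizontal bars are means, and the dotted line is the median probe set of an array. Cfb runs between 39.4 units in M2 and 2959.8 units in M1 macrophages, and Serping1 lies below the dotted line on all arrays.

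Cfb, which supplies the catalytic part of the alternative pathway enzyme, had the widest span. Its probe set, 1417314_at, read 2462, 2203 and 2959.8 units on the M1 arrays, 39.4 and 42.3 units on the M2 arrays, and 184, 112 and 107 units on the M0 arrays. The 3 groups did not overlap, with every M1 array far above and both M2 arrays below all M0 arrays. The log2 fold change was 4.28 for M1 against M0 (standard error 0.18, adjusted p = 1.82e-08 from limma) and -1.67 for M2 against M0 (standard error 0.21, adjusted p = 1.85e-04). Directly between M1 and M2 it was 5.95 (standard error 0.21, 95% confidence interval 5.50 to 6.40, adjusted p = 1.83e-09 from limma). Both M2 values lie at the array median, where background can make up much of the signal, so that the 5.95 and the -1.67 are uncertain in size. With values under 64 units set to 64, the M1 to M2 difference was 5.30 (adjusted p = 8.27e-04 from limma). Among 18193 genes the rise in M1 against M0 ranked 21st. M0 replicate 1 was the highest of the M0 arrays, and without it the M2 value was -1.42 and the M1 value 4.53. The M2 call was lost in the methods' t-test, as rerun here, after adjustment over all probe sets (adjusted p = 0.141). The paper itself lists Cfb among the genes raised in M1 and lowered in M2 macrophages, both past 2-fold. The M2 call was also lost where values under 64 units were set to 64 (a difference of -1.02, adjusted p = 0.141 from limma). The M1 against M0 difference stayed at 4.28 in that setting, yet its adjusted p was 0.00166 from limma, so there only the p-value moved.

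The neighbour of Cfb on chromosome 17, C2, encodes the matching protease of the classical pathway. Its brightest probe set gave 106, 102 and 95.3 units in M1, 59.1 and 109.8 units in M2, and 94.9, 126 and 97.9 units in M0 macrophages. The groups overlapped, and the M1 difference of -0.06 had a 95% confidence interval of -0.48 to 0.35 (adjusted p = 0.882 from limma). Its other probe sets, with 0.18 and 0.03 in M1, did not pass either (adjusted p = 0.381 and 0.892). The brightest probe set is of the _x_at kind, whose probes can match other transcripts, as are the dimmer probe sets of C1qb.

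The chains of C1q, whose genes lie side by side on chromosome 4, moved closely together. C1qa (1417381_at) read 7795, 9543 and 8297 units in M1, 9759.6 and 9987 units in M2, and 13136, 13184 and 13469.7 units in M0 macrophages. C1qb (1417063_at) read 8454, 9721 and 7358 units in M1, 11206 and 11300.2 units in M2, and 13095, 13652 and 14666 units in M0 macrophages. C1qc (1449401_at) read 7327, 8932 and 7198 units in M1, 10311 and 10612 units in M2, and 12855, 12879 and 13900.1 units in M0 macrophages. For each chain all M1 arrays were lowest, the M2 arrays lay between, and the M0 arrays were highest, with no overlap of the groups. M1 replicate 2 was the highest M1 array for every chain. Of the M1 markers, that array had the lowest M1 values of Il6 (753 units against 2875 and 3416), Il12b, Il1b, Nos2 and Tnf, but the highest of Cxcl9. The part of this difference in the C1q levels was not tested.

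The falls in M1 macrophages were of like size, 1.56-fold for C1qa, 1.63-fold for C1qb and 1.70-fold for C1qc. Their log2 fold changes were -0.64 (standard error 0.10, adjusted p = 5.9e-04), -0.71 (standard error 0.11, adjusted p = 6.78e-04) and -0.76 (standard error 0.11, adjusted p = 2.44e-04 from limma). Of the brightest probe sets of the chains only that of C1qa passed in M2 macrophages, at -0.43 (standard error 0.11, adjusted p = 0.0288 from limma), a pass lost when any single M0 or M2 array was left out (adjusted p up to 0.127 from limma). C1qb and C1qc had log2 fold changes of -0.29 and -0.34 in M2 macrophages, with adjusted p = 0.182 and 0.1 from limma. Their 95% confidence intervals, -0.57 to -0.02 and -0.60 to -0.07, span much of that of C1qa, -0.67 to -0.18. Between M1 and M2, C1qb and C1qc were lower in M1 by log2 differences of -0.41 and -0.43 (adjusted p = 0.0404 and 0.0256 from limma), and C1qa had one of -0.21 (95% confidence interval -0.46 to 0.03, adjusted p = 0.251). The difference of C1qb passed only in 2 of the 8 fits that left out an array, those without M0 replicate 1 or M1 replicate 2, and its adjusted p reached 0.14. That of C1qc no longer passed without M1 replicate 1, M1 replicate 3 or either M2 array (adjusted p up to 0.112 from limma). On the dimmer probe sets of C1qb, 1437726_x_at and 1434366_x_at, the M1 to M2 differences of -0.32 and -0.33 did not pass (adjusted p = 0.189 and 0.146 from limma).

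On each array the 3 chains, set against their own M0 means, stayed within 0.23 of each other on the log2 scale. The largest gap was on M1 replicate 3, and on the M0 arrays the gap was 0.03 to 0.07. Over the 8 arrays the root mean square difference of log2 intensity, each gene relative to its own M0 mean, was 0.0624 between C1qb and C1qc, 0.0964 between C1qa and C1qc, and 0.112 between C1qa and C1qb. By this measure C1qb was the nearest of 18192 genes to C1qc, and C1qc the third nearest to C1qb. C1qa stood further off, 9th from C1qc and 17th from C1qb. Seen from C1qa, C1qc ranked 16th and C1qb 36th, so that other genes were nearer to C1qa than its partner chains. The genes nearest to C1qa were Inpp5d, Fkbp2 and Ms4a7, at 0.0537 to 0.0637. The genes share the same 8 arrays, so that this likeness is a description of these arrays only. In a bulk sample, fewer cells that make C1q and less C1q RNA per cell cannot be told apart.

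Promoter sequence was at hand from RefSeq for 6 of the 9 genes, C1qb, C1qc, C3ar1, C5ar1, C3 and Cfp. The windows of C1qb and C1qc are shown because these genes moved together. Each gives the 250 bases before the annotated start on GRCm38.p6, on the minus strand, read 5′ to 3′ toward the gene, with capitals at motif matches on either strand.
C1qb, chr4:136886201-136886450: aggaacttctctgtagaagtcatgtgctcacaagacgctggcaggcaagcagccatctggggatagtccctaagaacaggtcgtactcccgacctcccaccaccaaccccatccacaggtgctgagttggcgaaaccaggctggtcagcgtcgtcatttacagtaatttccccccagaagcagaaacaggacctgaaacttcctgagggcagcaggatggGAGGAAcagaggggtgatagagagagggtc
C1qc, chr4:136892915-136893164: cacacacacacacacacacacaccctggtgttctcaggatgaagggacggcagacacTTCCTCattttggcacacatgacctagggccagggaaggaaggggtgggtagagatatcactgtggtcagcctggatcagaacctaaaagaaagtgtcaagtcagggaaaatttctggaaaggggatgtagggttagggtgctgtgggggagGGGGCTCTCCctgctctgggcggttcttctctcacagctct
The capitals in C1qb mark GAGGAA, the core of sites for PU.1, an ETS factor of macrophages, from 30 to 25 bases before the start. C1qc holds the same core on the opposite strand (TTCCTC, from 193 to 188 bases before the start) and a match to the NF-κB consensus (GGGGCTCTCC, from 41 to 32 bases before the start). Such letters are common by chance. GAGGAA or its reverse complement stands in 23.3% of the 32851 RefSeq promoter windows of this length and the NF-κB consensus in 7.25%. Neither window matched the core of the interferon-stimulated response element, GAAA followed by GAAA after a gap of 2 bases (2.98% of windows), or the GAS element, TTC and GAA with a gap of 3 bases (7.02%). Nor did they match the STAT6-type site, TTC and GAA with a gap of 4 bases (5.85%), or TGCTGAC of the Maf recognition element (3.81%). The windows of C3ar1, C5ar1 and Cfp matched none of the 6 motifs. A match is a description of the letters only, and binding was not measured.

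Properdin fell in M1 macrophages and did not pass in M2. Cfp (1452279_at) read 3854, 3727 and 3327 units in M1, 6524 and 6268 units in M2, and 6239.7, 7141 and 6932 units in M0 macrophages. All M1 arrays lay below the others, and the M2 arrays fell within the range of the M0 arrays. The fall in M1 was 1.86-fold, or -0.90 on the log2 scale, with a standard error of 0.10 (adjusted p = 4.46e-05 from limma). For M2 the difference was -0.08 (95% confidence interval -0.33 to 0.17, adjusted p = 0.751), and directly between M1 and M2 it was -0.82 (standard error 0.11, adjusted p = 2.26e-04 from limma). Its other probe set, 1447537_at, was far dimmer, at 86.3 to 103 units in M1, 107 to 126 units in M2 and 129.7 to 139 units in M0 macrophages. It fell by 0.53 in M1 macrophages on the log2 scale (adjusted p = 0.00348 from limma) and its M1 to M2 difference of -0.34 did not pass (adjusted p = 0.0773).

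**Figure D2:**
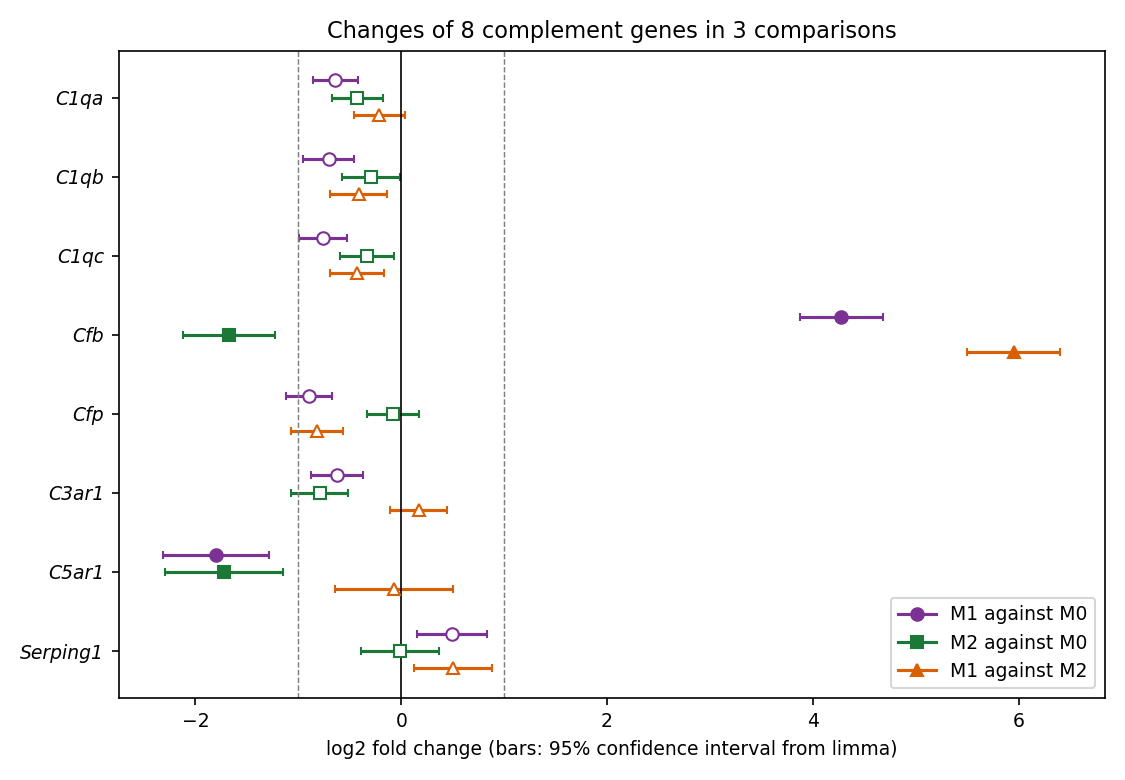
Log2 fold change of 8 complement genes for M1 against M0 (circles), M2 against M0 (squares) and M1 against M2 (triangles), with 95% confidence intervals from limma. Filled symbols passed an adjusted p under 0.05 with at least 2-fold, dashed lines mark 2-fold, and only Cfb and C5ar1 have filled symbols.

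The receptor for C5a, an attractant of phagocytes, fell under both stimuli. C5ar1 (1422190_at) read 788, 898 and 893 units in M1, 877 and 928 units in M2, and 1809, 3434 and 4266 units in M0 macrophages. The M1 and M2 arrays overlapped in a narrow band and lay below every M0 array, while the M0 arrays themselves spread widely with replicate 1 lowest. The log2 fold changes were -1.80 in M1 (3.47-fold lower, standard error 0.24, adjusted p = 1.37e-04) and -1.72 in M2 macrophages (3.30-fold lower, standard error 0.26, adjusted p = 9.22e-04 from limma). Their direct difference was -0.07, with a 95% confidence interval of -0.65 to 0.50. That interval allows a difference of up to 0.65 on the log2 scale, so the falls cannot be called equal. Without M0 replicate 1 they were -2.16 and -2.08, and without M0 replicate 3 they were -1.54 and -1.47. Neither call held in the methods' t-test, as rerun here, after adjustment over all probe sets (adjusted p = 0.0652 for M1 and 0.215 for M2). The paper itself lists C5ar1 among the genes lowered in both M1 and M2 macrophages. The M2 call was also lost where values under 64 units were set to 64 (adjusted p = 0.0804 from limma). No C5ar1 value lay under 64 units and its log2 fold change stayed at -1.72 there, so only the p-value moved.

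A second probe set of C5ar1, 1439902_at, read 439, 501 and 472 units in M1, 493 and 452 units in M2, and 1365, 1926 and 2332 units in M0 macrophages. It showed the same order of groups, and again replicate 1 was the lowest M0 array. Its log2 fold changes were -1.96 in M1 (standard error 0.16, adjusted p = 3.39e-06) and -1.96 in M2 macrophages (standard error 0.18, adjusted p = 1.7e-05 from limma). The genes nearest to C5ar1 in pattern were Apoc1, Rapsn and Wwp1, at root mean square differences of 0.23 to 0.26 over the 8 arrays.

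C3ar1, the receptor for C3a, fell under both stimuli, but its 3 probe sets disagreed on how M1 compares with M2. The brightest, 1419482_at, read 5701, 6509 and 5193 units in M1, 5275 and 4998 units in M2, and 8089, 8945 and 9747 units in M0 macrophages. The M1 and M2 arrays overlapped below all M0 arrays. Its log2 fold changes were -0.62 in M1 (1.54-fold lower, standard error 0.11, adjusted p = 0.00161) and -0.79 in M2 macrophages (1.73-fold lower, standard error 0.13, adjusted p = 0.00132 from limma). Between M1 and M2 it gave 0.17 (95% confidence interval -0.11 to 0.45, adjusted p = 0.445).

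On the second probe set, 1442082_at, C3ar1 read 1946, 2865 and 1798 units in M1, 3429 and 3751 units in M2, and 4553, 5241 and 5304 units in M0 macrophages. On the other, 1419483_at, it read 1837, 2292 and 1719.7 units in M1, 3210.1 and 3391 units in M2, and 4142, 4476 and 5038 units in M0 macrophages. Here the M1 arrays were lowest, the M2 arrays between and the M0 arrays highest, with no overlap. Both called a fall in M1 macrophages, at -1.22 (adjusted p = 1.13e-04) and -1.23 (adjusted p = 1.72e-05 from limma). In M2 macrophages they gave -0.49 and -0.46, which did not pass (adjusted p = 0.101 and 0.0512). Between M1 and M2 they differed by -0.73 (adjusted p = 0.00982) and -0.77 (adjusted p = 0.00161 from limma). The first of these no longer passed without M2 replicate 2 (adjusted p = 0.0806). A fall of C3ar1 in M1 macrophages was therefore common to all 3 probe sets, while its size, the pass in M2 and the order of M1 and M2 depended on the probe set. The genes nearest to the brightest probe set in pattern were Arhgap17, Pygb and Dcxr, at root mean square differences of 0.08 to 0.10.

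**Figure D3:**
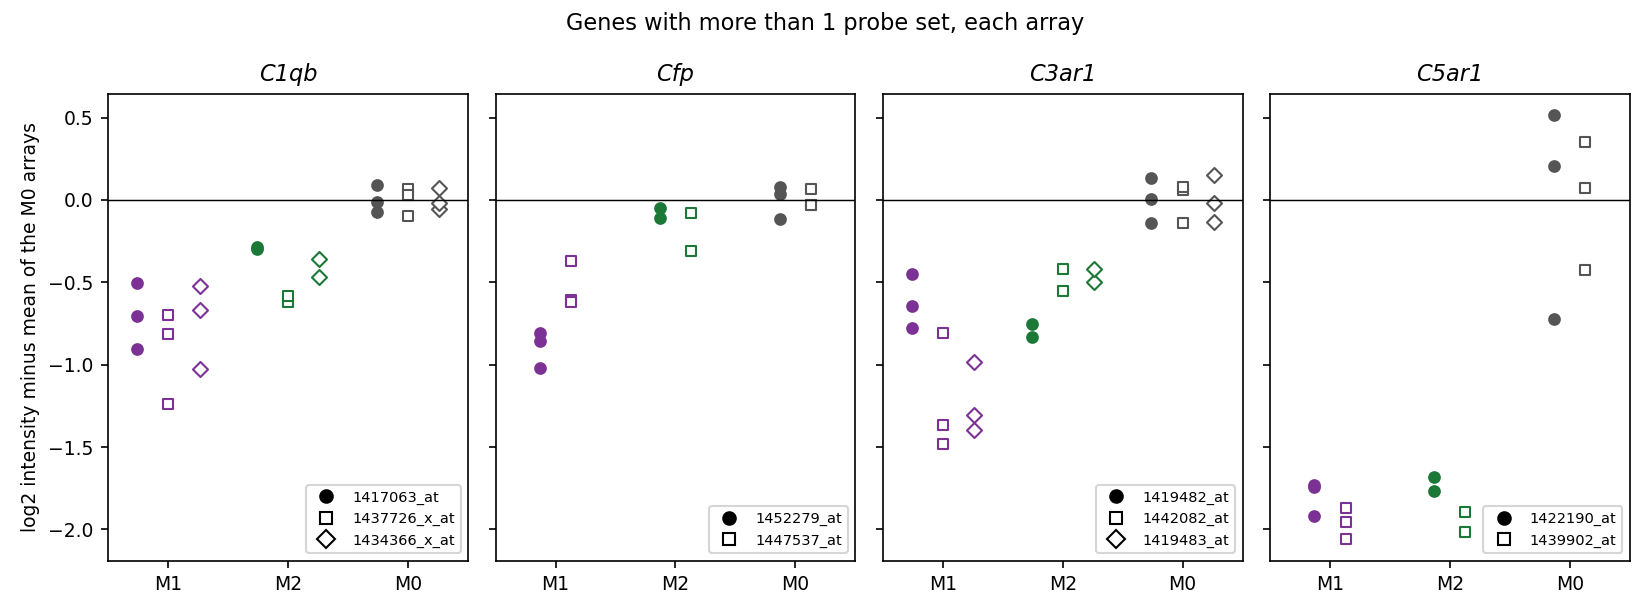
Log2 intensity of each array minus the mean of the M0 arrays, for the 4 genes with more than 1 probe set, in M1 (purple), M2 (green) and M0 (grey) macrophages. Filled circles are the brightest probe set of a gene, and open squares and diamonds the others. The probe sets of C3ar1 part in M1, where the brightest gave a mean change of -0.62 and the others -1.22 and -1.23.

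The other probe sets of C1qb gave the same direction as its brightest. Probe set 1437726_x_at read 3901, 4234 and 2905 units in M1, 4464 and 4579.9 units in M2, and 7169, 6415 and 7013 units in M0 macrophages. It fell by 0.92 in M1 and by 0.60 in M2 macrophages on the log2 scale (adjusted p = 3.01e-04 and 0.0197 from limma), the second a pass lost without M0 replicate 1, M0 replicate 3 or either M2 array (adjusted p up to 0.11). Probe set 1434366_x_at fell by 0.74 in M1 macrophages (adjusted p = 0.00101 from limma), and its M2 value of -0.41 did not pass (adjusted p = 0.0848). The brightest probe set, at 7358 to 14666 units, thus gave the smallest differences of the 3 in both comparisons, as the brightest did for C5ar1 and, in M1 against M0, for C3ar1. For Cfp the brightest gave the larger fall in M1 macrophages.

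Serping1, the inhibitor of the C1 proteases, was dim throughout. It read 23.3, 30.4 and 38.2 units in M1, 23.1 and 19.5 units in M2, and 22.5, 20.9 and 20.7 units in M0 macrophages, all below the array medians. The M1 arrays were uneven and lay just above the M0 arrays, and the M2 arrays overlapped with M0. The log2 fold change in M1 macrophages was 0.49 (1.41-fold, standard error 0.16, adjusted p = 0.0416 from limma), a pass that held in only 1 of the 8 fits that left out an array, that without M1 replicate 1. Without M1 replicate 3 it was 0.32 (adjusted p = 0.154 from limma). In M2 macrophages it was -0.01 (95% confidence interval -0.39 to 0.37, adjusted p = 0.988).

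Other genes of the complement system were taken from a list of 44, of which 36 had a probe set. Of the 36, 20 lay below the array median on all arrays, among them all 6 measured genes of the membrane attack pathway. The array median was taken over all probe sets, while each gene is given here by its brightest. The share over all genes was not counted, so whether this count sets the list apart is not known. In M1 macrophages 3 of the 36 rose and 6 fell whatever the fold (background 13.7% higher and 11.5% lower). With the 2-fold limit 0 were called higher and Lrp1, Cd93 and Cd55 were called lower (background 2.80% and 3.20%). In M2 macrophages 2 rose and 5 fell whatever the fold (background 8.03% and 6.43%). With the 2-fold limit Itgax was called higher and Lrp1, Cd93 and Cd55 lower (background 1.91% and 1.76%). The median log2 fold change of the list was -0.07 in M1 and -0.03 in M2 macrophages.

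Itgax, a chain of complement receptor 4, read 587, 531 and 912 units in M1, 8095 and 9624 units in M2, and 840.5, 902 and 977 units in M0 macrophages. Both M2 arrays stood far above the rest, while the M1 and M0 arrays overlapped. Its log2 fold change was 3.29 in M2 (standard error 0.19, adjusted p = 4.04e-07 from limma) and -0.46 in M1 macrophages (adjusted p = 0.0878). Itgam, the matching chain of complement receptor 3, had overlapping groups and did not pass in either comparison (adjusted p = 0.464 in M1 and 0.752 in M2). Their shared partner Itgb2 rose by 0.30 in M1 macrophages (adjusted p = 0.0383 from limma) and had a difference of 0.32 in M2 that did not pass (adjusted p = 0.0644).

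Lrp1 and Cd93, both described as receptors that take part in C1q-linked uptake, fell under both stimuli. Lrp1 read 828, 896 and 746 units in M1, 1351 and 1154 units in M2, and 2702, 2728 and 2481 units in M0 macrophages, with no overlap of the groups on this probe set. Its log2 fold changes were -1.68 in M1 (adjusted p = 4.17e-07) and -1.08 in M2 macrophages (adjusted p = 8.83e-05 from limma). Without M2 replicate 2 the M2 value was -0.96, under the 2-fold limit. Its other probe set was also called lower in both, at -1.47 in M1 and -1.79 in M2 macrophages (adjusted p = 0.00801 and 0.00871 from limma). The order of M1 and M2 depended on the probe set, with a difference of -0.60 on the brightest (adjusted p = 0.0034) and 0.32 on the other, whose M1 and M2 arrays overlapped (adjusted p = 0.669). Cd93 read 1731, 1665 and 1374 units in M1, 1324 and 1165 units in M2, and 3870.4, 4441 and 4374 units in M0 macrophages. It fell by 1.42 in M1 and fell by 1.76 in M2 macrophages on the log2 scale (adjusted p = 3.26e-06 and 2.66e-06 from limma). Of its 5 probe sets 2 called the fall in M1 and 3 in M2 macrophages. Calr, which presents on dying cells and binds C1q, fell by 0.70 in both comparisons (adjusted p = 3.5e-04 in M1 and 0.0017 in M2), short of 2-fold, and its other probe sets fell in both too. C1qbp, a mitochondrial protein that can bind C1q heads, rose by 0.69 in M2 macrophages (adjusted p = 0.0022) and did not pass in M1 (adjusted p = 0.275).

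Among regulators that shield cells from complement, Cd59a, an inhibitor of the membrane attack complex, fell. It read 144, 146 and 137 units in M1, 206 and 161 units in M2, and 282, 272 and 294 units in M0 macrophages, and it fell by 0.99 in M1 and fell by 0.63 in M2 macrophages on the log2 scale (adjusted p = 3.41e-05 and 0.00466 from limma). Its other probe set was called lower in both, at -1.02 and -1.05 (adjusted p = 5.99e-04 and 0.00221). Cd55, which speeds the decay of the C3-cleaving enzymes, was called lower in both, at 8.12, 12.8 and 13.2 units in M1, 12.6 and 8.18 units in M2, and 15.9, 33.4 and 21.9 units in M0 macrophages. These levels are all below the array median, and without M0 replicate 2 neither call held (adjusted p = 0.06 in M1 and 0.0674 in M2 from limma), nor did the M1 call without M1 replicate 1 (adjusted p = 0.0639) or the M2 call without M2 replicate 2 (adjusted p = 0.202). Both calls were also lost in the methods' t-test, as rerun here on log2 values, with or without adjustment. With values under 64 units set to 64, both differences were 0.0. The other probe sets of Cd55 also fell, short of 2-fold. In M1 macrophages they fell by 0.90 and 0.91 (adjusted p = 0.00138 and 8.64e-05 from limma). In M2 macrophages they fell by 0.97 and 0.72 (adjusted p = 0.00369 and 0.00223 from limma). Their mean log2 intensity is lower still than that of the brightest, so background may make up much of their signal too. Cr1l, the mouse inhibitor Crry, did not pass against M0 on any of its 3 probe sets (adjusted p = 0.204 in M1 and 0.673 in M2 on the brightest). In the initiation group, the C1 proteases C1ra and C1s1 rose by 0.38 and 0.52 in M1 macrophages (adjusted p = 0.0208 and 0.00287), C1s1 at only 15.4 to 17.8 units in M1, against 11.2 to 12.8 units in M0. Fcna, a ficolin that starts the lectin pathway, fell by 0.90 (adjusted p = 0.00125 from limma).

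**Figure D4:**
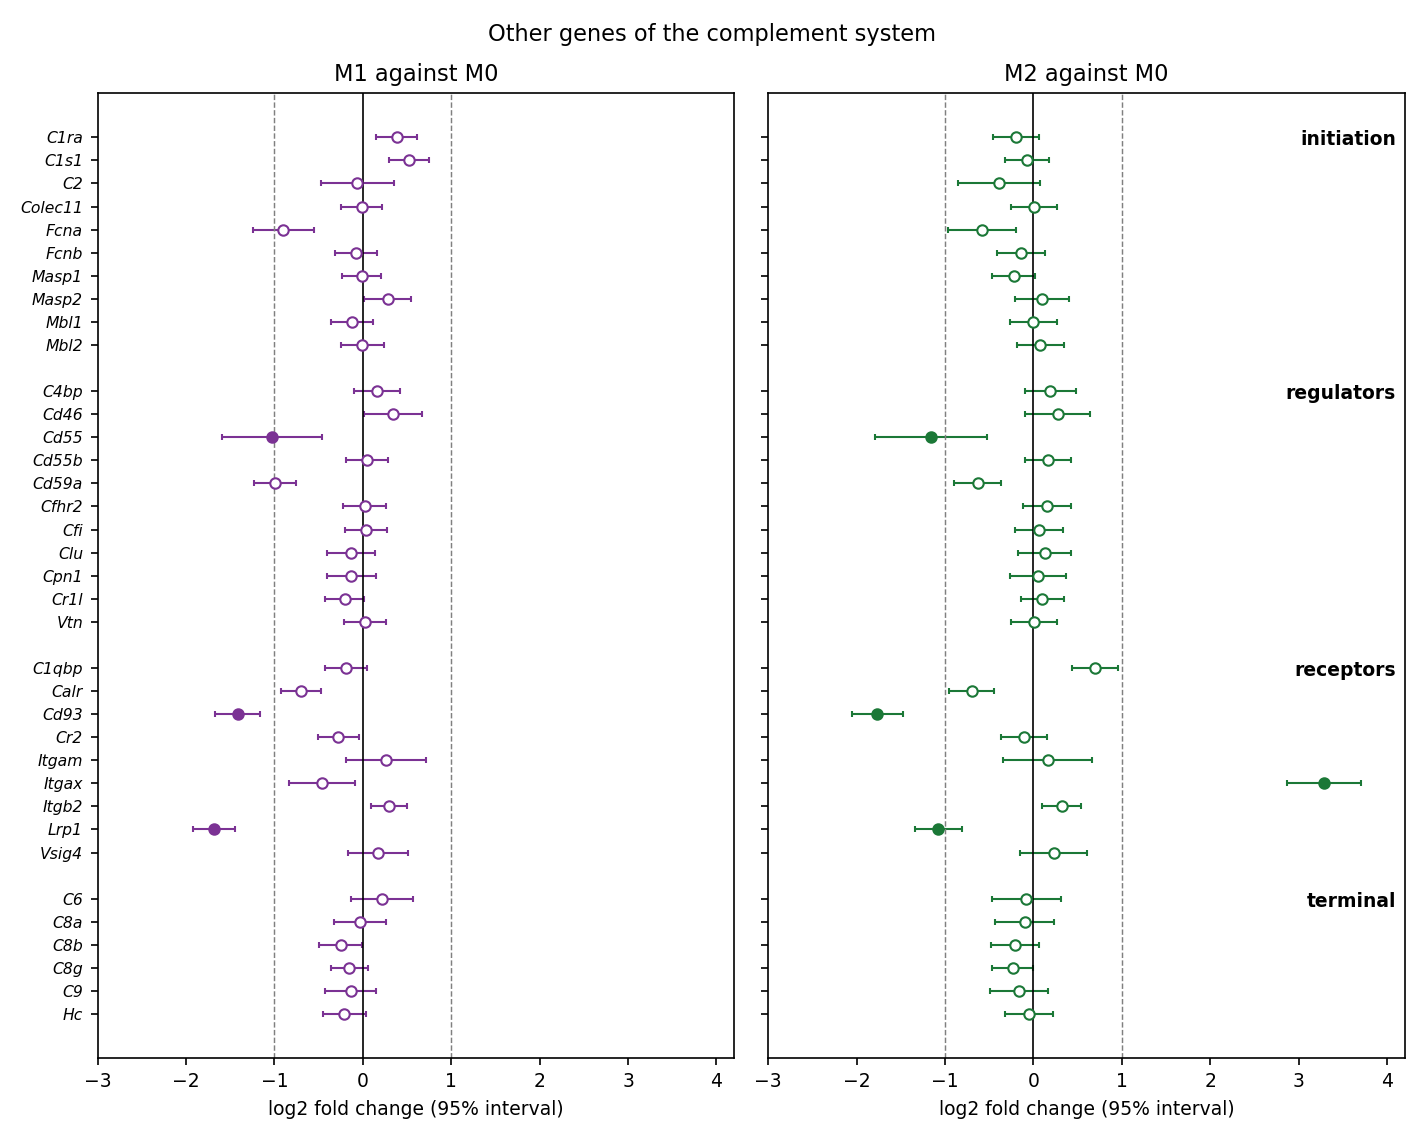
Log2 fold change with 95% confidence interval of 36 other complement genes by role, for M1 against M0 (left) and M2 against M0 (right). Filled circles passed an adjusted p under 0.05 with at least 2-fold, and dashed lines mark 2-fold. Itgax stands alone at 3.29 on the right, and Lrp1, Cd93 and Cd55 are filled below 0 on both sides.

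Cells that make complement outside the myeloid line were looked for by their markers. Of 8 hepatocyte markers none passed in any comparison, also without a fold limit, and their summed level was 298 to 324 units in M1, 305 to 338 units in M2 and 309 to 322 units in M0 macrophages. Of 10 fibroblast markers only Dcn was called, higher in M1 macrophages at 59.2 to 68.4 units, against 27.1 to 28.5 units in M0, and higher than in M2 (19.4 and 32.8 units). Without a fold limit Lum also rose in M1, with 0.56 against M0 (adjusted p = 0.013) and 0.50 against M2 (adjusted p = 0.0438), at 12.4 to 18.3 units in M1, while Acta2 fell in M1 and M2 against M0, with -0.49 and -0.52 (adjusted p = 0.009 and 0.0187 from limma). Col1a2 did not pass but was uneven, at 77.3, 81.9 and 196 units in M1 and 81.6 and 154.8 units in M2. In M0 macrophages it read 82.7, 56.6 and 78.7 units. Col1a2, Col3a1, Dcn, Pdgfrb and Thy1 were highest on M1 replicate 3, also the array with the most Serping1. Col1a1, Lum, Pdgfra, Postn and Acta2 were highest on other arrays. Lum was highest on M1 replicate 1, the M1 array with the least Serping1, and Acta2 had its lowest M1 value on M1 replicate 3. The part of these markers in the complement results was not tested. The summed level of that list was 363 to 506 units in M1, 312 to 426 units in M2 and 348 to 367 units in M0 macrophages. In all, 6 of its markers were below the array median on all arrays. The genes nearest to Cfb in pattern were Zfp811, Slfn4 and Socs3, at root mean square differences of 0.44 to 0.64 over the 8 arrays, none of them on either marker list.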

How the data were processed

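The series holds 8 Affymetrix whole-genome mouse arrays. The deposited values are linear intensity per probe set, normalized by the authors with RMA (background correction, quantile normalization and probe set summary) in GenePattern. Raw scans were not used here, so the background correction could not be varied. The log2 of each intensity was taken and 64 of the 45101 probe sets, controls, were left out. Limma 3.58.1 in R 4.3.3 fitted all 8 arrays with a mean per condition (5 residual degrees of freedom, prior 6.95). Benjamini-Hochberg adjustment ran over all 45037 probe sets. The procedure was tested on simulated data.

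Probe sets were named from the platform annotation, where 34945 have 1 symbol, 932 several, and 9160 are not listed. Named genes were the 9 members, each listed complement gene called in a comparison, and the 3 genes nearest in pattern to C1qa, Cfb, C3ar1 and C5ar1; other genes of the lists were named after their values were seen. The members and lists were chosen with earlier results of these data known. Promoters and gene neighbours came from RefSeq (GRCm38.p6). Figures were drawn with matplotlib 3.10.9.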

Additional observations from a re-analysis of the deposited data

How the results depend on the processing

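The changes of Cfb and C5ar1 against M0 kept their direction under every alternative run. The number of the 8 genes called in M1 against M0 was 2, and 1 with the methods' t-test, as rerun here, on log2 values after adjustment. With the mean of all probe sets of a gene, C3ar1 also passed the 2-fold limit there, at -1.02 (adjusted p = 7.85e-05 from limma). In M2 against M0 it was 2, and 0 with that test, with the methods' t-test on linear values without adjustment, and with values under 64 units set to 64. Without a fold limit the numbers were 8 in M1 against M0, 4 in M2 against M0 and 4 in M1 against M2, where 1 was called. Of the other complement genes 3, 4 and 1 were called, which became 9, 7 and 5 without a fold limit, and 1 in M2 against M0 with the adjusted t-test.

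Counts whatever the fold, alternatives chosen after seeing the data, were 5, 1 and 1 with the adjusted t-test in M1 against M0, M2 against M0 and M1 against M2. With values under 64 units set to 64 they were 1 in M2 against M0 and 2 in M1 against M2, and that of M1 against M2 was also 2 with only the groups compared in the fit. Leaving out an array gave 2, 2 and 1 genes called, and 7 to 8, 3 to 4 and 2 to 4 whatever the fold, the 2 arising without M1 replicate 3, M2 replicate 1 or M2 replicate 2. For other complement genes it gave 2 to 4, 2 to 4 and 1, with 2 in M2 against M0 without M2 replicate 2. The cause of these losses was not tested.

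With the replicate number as a block, 2 genes passed whatever the fold in M1 against M2, and no other count of members moved past 1.5 times. Sample titles repeat the same numbers across conditions, so arrays of the same number may share a mouse. Arrays of the same number deviated together at correlations of -0.17 to 0.05 over 7 pairs and others at -0.15 to 0.19 over 14 pairs. With so few arrays, and 2 M2 arrays whose deviations mirror each other, these correlations cannot settle whether the arrays are paired. The numbers were not taken as pairs in the main fit.

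Direction turned for Serping1 in M2 against M0, a value near 0, at 0.069 with the replicate block, 0.028 with median centring and 0.0074 with quantile normalization, and leaving out an array gave -0.13 (without M2 replicate 1) to 0.11 (without M2 replicate 2). It turned for C3ar1 in M1 against M2, at -0.44 with the mean of all its probe sets. That value passed (adjusted p = 0.032 from limma), while the 0.17 of the brightest probe set did not (adjusted p = 0.445). Leaving out an array gave -0.18 to 0.44 for Cd55 and -0.070 to 0.056 for the second probe set of C5ar1 in M1 against M2. With 2 M2 arrays, values for M2 are the least precise, and those under the array median, as for Serping1 and Cd55, are close to background.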
